A study of Canis lupus familiaris with 32 samples.

Results

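ENSCAFG00000020033 and ENSCAFG00000017865 are 2 of the 24580 dog genes in the deposited table. Both were picked out as high in the teres ligament of the hip and low in the joint capsule. Across all dogs the ranges of ligament and capsule overlapped for both genes. They were chosen from measured values, and which comparison chose them is not recorded. The most likely one is between the tissues of the same dogs. In the 7 dogs that gave both tissues, 41 genes were called by edgeR (adjusted p under 0.05), reached 5 CPM on average in ligament (CPM is the fragment count scaled to a common library size) and were higher in the ligament of every dog. ENSCAFG00000020033 and ENSCAFG00000017865 stood first and second of them by log2 fold change, at 4.54 (SE 0.82) and 3.03 (SE 0.42). The next genes in that order stood at 2.967 and 2.198. In that comparison 2.92% of 12593 genes were called and 0.389% were called higher in ligament. Those values are taken as the ones that chose the genes, so nothing is read from them. If the libraries of the other dogs also had a part in the choice, the tests on them are not independent of it either.

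The teres ligament, or ligament of the femoral head, is a collagen-rich band within the joint cavity that ties the head of the femur to its socket. The capsule is a fibrous sleeve around the joint, lined on its inner side by synovium. Both restrain the femoral head, and laxity of the joint is a hallmark of hip dysplasia in dogs. The files and the reference table pair neither ID with a gene name, so no function and no sequence is given for either gene.

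Total RNA was depleted of ribosomal RNA and sequenced with strand-specific libraries, 32 in all, from 25 dogs. Affected ligaments came from 7 dogs with hip dysplasia (4 adults and 3 aged 4 months), young ligaments from 4 dogs under 1 month of age and control ligaments from 3 adults. The 4 dogs behind the affected capsules were 1 adult and 3 animals aged 4 months; other capsules came from 6 young dogs under 1 month and 5 control adults. The 3 embryonic libraries are labelled as embryonic hip, with no finer tissue. All controls were adult, so age and disease differ together wherever dogs aged 4 months enter, and tissue and age differ together wherever the embryonic hip enters. All dogs aged 4 months, and 1 young dog, are labelled with names that start alike, for which no reason is given. Libraries held 2857235 to 9895143 fragments. Each correlated with the other libraries of its group at a median Spearman rho of 0.883 to 0.979 across genes, which are not independent replicates. With no gene names, tissue markers could not be checked. In bulk tissue, fewer cells of a type and less RNA per cell cannot be told apart.

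In affected ligaments ENSCAFG00000020033 had 11.8, 128, 222 and 1.15 CPM in the 4 adults and 22.7, 4.27 and 28.3 CPM at 4 months. Young ligaments had 8.59, 6.02, 11.02 and 1.00 CPM, and control ligaments 65.0, 33.7 and 6.55 CPM. Ligaments of adult dogs were thus both the highest and among the lowest, with 887 and 7 fragments in 2 affected adults, and the ranges of all 3 ligament groups overlapped. Affected capsules had 12.05, 2.46, 2.13 and 0 CPM, the first in the adult dog. Young capsules ran from 0 to 1.04 CPM with a median of 0.0833, and control capsules had 0.646, 2.16, 0, 0.247 and 0 CPM. No fragment of this gene was found in 6 of 15 capsules, 4 of them from the 7 dogs with both tissues. Of the 8 capsules of other dogs, 2 were at 0. Embryonic hip had 12.05, 9.44 and 5.99 CPM, within the range of the ligament groups and above every young and control capsule.

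Ordered by its mean, ENSCAFG00000020033 averaged 59.9 ± 84.0 CPM (SD, n = 7) in affected ligament, 35.1 ± 29.3 (n = 3) in control ligament, 9.16 ± 3.04 (n = 3) in embryonic hip, 6.66 ± 4.29 (n = 4) in young ligament, 4.16 ± 5.37 (n = 4) in affected capsule, 0.611 ± 0.907 (n = 5) in control capsule and 0.339 ± 0.469 (n = 6) in young capsule. No step between neighbours in that order was larger than the larger SD of the neighbours, and the ranges of all neighbours overlapped.

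ENSCAFG00000017865 had 39.4, 74.8, 95.8 and 8.39 CPM in affected ligaments of adults and 30.4, 5.70 and 2.76 CPM in those of dogs aged 4 months. Young ligaments had 27.1, 23.1, 56.5 and 42.9 CPM, and control ligaments 7.90, 16.6 and 25.0 CPM. Affected capsules had 19.2 CPM in the adult dog and 0.5677, 2.51 and 0 CPM at 4 months. Young capsules ran from 1.76 to 13.45 CPM (median 7.55) and control capsules had 8.72, 17.7, 1.19, 5.94 and 10.7 CPM. This gene was therefore low but present in capsule, with fragments in all but 1 library. Embryonic hip had 0.458, 1.33 and 7.99 CPM, and the third library held 60 of the 73 embryonic fragments.

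By its mean ENSCAFG00000017865 ran from young ligament at 37.4 ± 15.3 CPM (SD, n = 4) and affected ligament at 36.7 ± 36.3 (n = 7) through control ligament at 16.5 ± 8.56 (n = 3), control capsule at 8.84 ± 6.10 (n = 5), young capsule at 7.81 ± 4.65 (n = 6) and affected capsule at 5.58 ± 9.17 (n = 4) to embryonic hip at 3.26 ± 4.12 (n = 3). Here too no neighbours differed by more than the larger of their SDs on the CPM scale. The 2 genes thus differed in their place for embryonic hip, in the upper part of the order for ENSCAFG00000020033 and last for ENSCAFG00000017865.

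**Figure D1:**
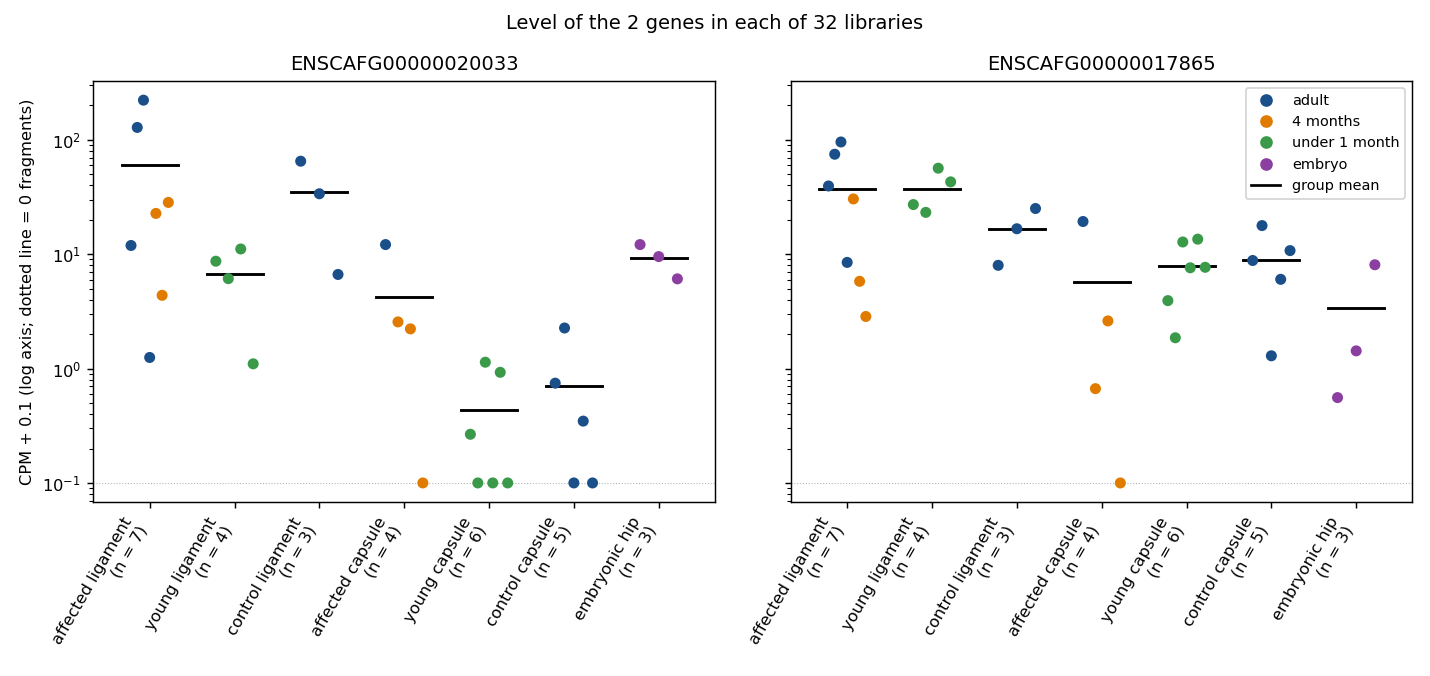
CPM + 0.1 on a log axis for each library, by group, with 1 panel per gene; points are libraries coloured by age, bars are group means, and the dotted line marks 0 fragments. ENSCAFG00000020033 is at 0 in 6 of 15 capsules and at 5.99 to 12.05 CPM in embryonic hip, while ENSCAFG00000017865 averages 3.26 CPM in embryonic hip.

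Levels of the genes can be set side by side on the authors' FPKM, which divides by gene length. One fragment was worth a median of 0.399 FPKM for ENSCAFG00000020033 and 0.0778 FPKM for ENSCAFG00000017865, so ENSCAFG00000020033 rests on fewer fragments for the same level. In affected ligaments ENSCAFG00000020033 averaged 128 ± 182 FPKM (SD, n = 7) and ENSCAFG00000017865 15.03 ± 15.21 FPKM. Those means exceed those of 97.5% and 70.7% of the genes with a nonzero mean there. ENSCAFG00000020033 was the higher of both genes in 12 of 14 ligaments and in 3 of 3 embryonic hips. In young capsules it was higher in 0 of 6, in control capsules in 0 of 5 and in affected capsules in 3 of 4. These capsule counts rest on few fragments. ENSCAFG00000020033 had 0 to 4 fragments in young and 0 to 11 in control capsules. In affected capsule replicate 2 the genes had 13 and 3 fragments, and affected capsule replicate 4 had 0 of both. In young ligaments the genes were close to each other in 3 libraries, with 1.64, 1.34 and 1.01 times as much FPKM of ENSCAFG00000020033, and 0.121 times in the fourth. In control ligaments the same ratio was 42.6, 10.5 and 1.35.

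**Figure D2:**
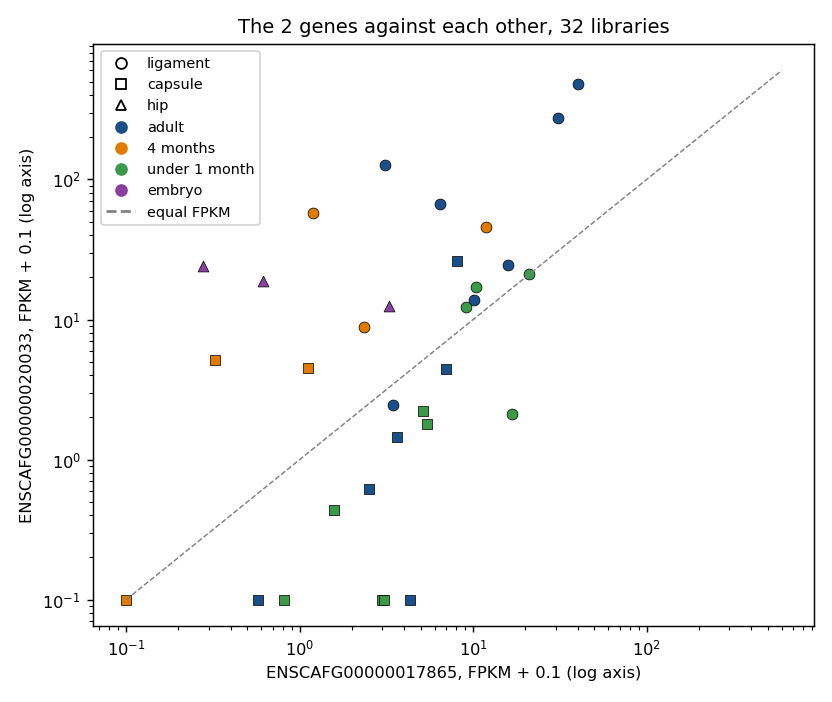
FPKM + 0.1 of ENSCAFG00000020033 against that of ENSCAFG00000017865 on log axes, 1 point per library, with shape for tissue, colour for age and a dashed line at equal FPKM. Ligaments lie above the line in 12 of 14 libraries and capsules in 3 of 15, all 3 from affected dogs. The place of capsules rests on few fragments, 94 of ENSCAFG00000020033 over 15 libraries.

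Within a tissue the genes were not found to move together. Across 14 ligaments their log2 CPM values had a Pearson r of 0.267 (permutation p = 0.359, adjusted over 4 relations 0.479) and a Spearman rho of 0.244 (permutation p = 0.402, adjusted 0.537). Without the 2 ligaments farthest from the median of ENSCAFG00000020033, r was -0.213. Across 15 capsules r was 0.337 (permutation p = 0.2, adjusted 0.399) and rho 0.409 (p = 0.129, adjusted 0.471), with r at 0.436 without 2 capsules. Over the 7 dogs with both tissues, the level in ligament against that in capsule gave r = -0.0123 for ENSCAFG00000020033 (exact permutation p = 0.933, adjusted 0.933) with rho = -0.0985 (exact p = 0.819, adjusted 0.819). For ENSCAFG00000017865 it gave r = 0.647 (exact permutation p = 0.132, adjusted 0.399) and rho = 0.536 (exact p = 0.236, adjusted 0.471), and r was -0.15 without the 2 dogs with the most distant capsule levels. Without the 2 farthest libraries r was -0.0713 for ENSCAFG00000020033. Of its 7 capsules here, 4 had 0 fragments, and those left without the farthest 2 held 0 or 1 fragment. With so little variation in capsule, the relation of ENSCAFG00000020033 cannot be judged.

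In the dogs that gave both tissues the gap differed widely between animals. ENSCAFG00000020033 had 321 fragments in the ligament and 0 in the capsule of the adult control dog, and 154 and 0 in 1 affected dog aged 4 months. In the other affected dogs it had 97 fragments in ligament and 13 in capsule, and 18 and 11. Young dogs had 52 fragments in ligament and 1 in capsule, 51 and 0, and 5 and 0. Ligament minus capsule ran from 0.89 to 7.41 on the log2 CPM scale, with the direction fixed by the choice of the genes, and the narrowest gap was in an affected dog aged 4 months. ENSCAFG00000017865 ran from 1.07 to 5.01 on that scale, and its narrowest gap, 24 fragments in ligament and 13 in capsule, was in the same dog.

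The dogs that gave 1 tissue only are outside that paired comparison, and the tissue difference was tested in their 7 ligaments and 8 capsules. The p-values count as independent only if these libraries had no part in the choice of the genes, which is not recorded. ENSCAFG00000020033 had 1.15 to 222 CPM in these ligaments (median 11.8) and 0 to 12.05 CPM in these capsules (median 0.737). Of the 7 ligaments, 3 lay above every capsule. ENSCAFG00000017865 had 8.39 to 95.8 CPM in ligament (median 39.4) and 5.94 to 19.2 CPM in capsule (median 11.7), and 5 of the 7 ligaments lay above every capsule. For both genes the ranges overlapped, and the lowest ligament was that of affected replicate 4, an adult.

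Fitted with edgeR across all genes, with the sample group (affected, young or control) as a covariate, ENSCAFG00000020033 was 13.5-fold higher in ligament than in capsule (log2 3.75, SE 1.04, adjusted p = 0.123) and ENSCAFG00000017865 2.76-fold higher (log2 1.47, SE 0.46, adjusted p = 0.164). Neither was called, where 1.09% of 12395 genes were, and 0.299% were called higher in ligament. DESeq2 called both (adjusted p = 0.0173 and 0.0303), as did edgeR with no sample group covariate (0.0487 and 0.043). So did edgeR without affected ligament replicate 4 (0.0418 and 0.0281), the lowest ligament for both genes. Leaving out any other single library called neither, with edgeR adjusted p up to 0.359 and 0.402. Limma on FPKM and edgeR with no filter on low counts also called neither. Taken singly, without the covariate, the means of log2 CPM differed by 4.05 for ENSCAFG00000020033 (4.35 ± 2.49 in 7 ligaments and 0.30 ± 1.64 in 8 capsules, SD; two-sided exact permutation p = 0.00404) and by 1.59 for ENSCAFG00000017865 (5.12 ± 1.24 and 3.53 ± 0.57, p = 0.00932 in the same exact permutation test). These p-values are not adjusted over genes; unadjusted, edgeR gave 0.00329 and 0.00647, beside the exact permutation values. Affected dogs made up 4 of these 7 ligaments but 1 of these 8 capsules. With adult libraries only, the log2 fold changes were 3.68 (SE 1.30, adjusted p = 0.25) and 1.12 (SE 0.60, adjusted p = 0.414).

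For ENSCAFG00000017865 the capsules of dogs with 1 tissue and with both stood apart. It averaged 12.0 ± 4.73 CPM (SD, n = 8) in capsules of dogs that gave 1 tissue and 2.49 ± 2.58 CPM (n = 7) in capsules of dogs that gave both, and 6 of these 8 capsules were above all of the other 7. In ligament the means were 45.2 ± 32.1 CPM (n = 7) and 19.97 ± 14.93 CPM (n = 7). ENSCAFG00000020033 averaged 59.3 ± 84.4 and 19.4 ± 22.5 CPM in those ligaments and 2.12 ± 4.07 and 0.679 ± 1.11 CPM in those capsules. This split was seen in the data and is no group of the labels, but labelled age differs between its sides. All dogs aged 4 months are on the side that gave both tissues. Of the adult capsules, only control replicate 3 is on that side. The capsules of dogs with both tissues are taken to have chosen both genes as low in capsule. Low levels in those capsules are favoured by that choice, so nothing is read from the split in capsule.

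**Figure D3:**
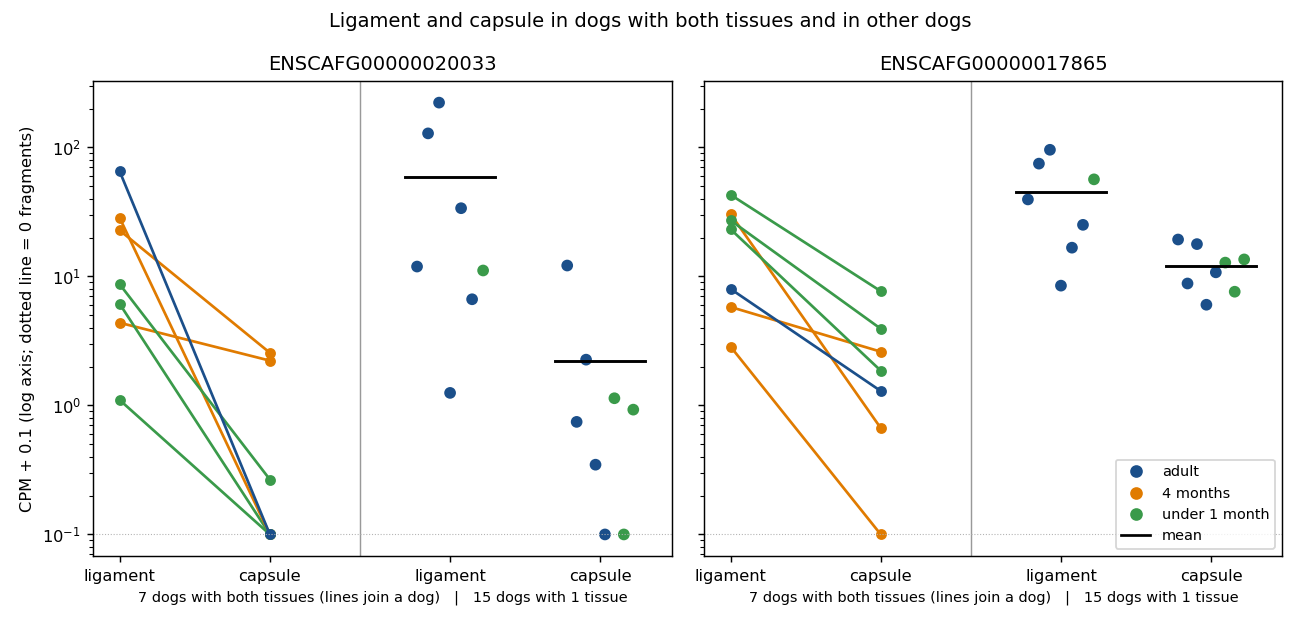
CPM + 0.1 on a log axis in ligament and capsule, with lines joining the tissues of each of the 7 dogs that gave both and single points with a mean bar for the 15 dogs that gave 1 tissue; colour is age and the dotted line marks 0 fragments. The fall of the lines toward capsule is fixed by the choice of the genes; in the other dogs the ranges of ligament and capsule overlap for both genes.

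Age within ligament was tested as young against control dogs. Young replicates 1, 2 and 4 and control replicate 1 are from the dogs taken to have chosen the genes as high in ligament. The test is therefore not independent of that choice. ENSCAFG00000020033 stood at a log2 fold change of -2.40 (SE 0.75, edgeR adjusted p = 0.0796), with 1.00 to 11.02 CPM in young and 6.55 to 65.0 CPM in control ligaments. ENSCAFG00000017865 stood on the other side of 0, at 1.15 (SE 0.43, adjusted p = 0.123), with 23.1 to 56.5 CPM in young and 7.90 to 25.0 CPM in control ligaments. Neither passed, where 10.3% of 12701 genes did. Control replicate 3 was the lowest control for the first gene and the highest for the second. Without it ENSCAFG00000020033 stood at -2.88 (edgeR adjusted p = 0.0229) and ENSCAFG00000017865 at 1.6 (adjusted p = 0.0506). Leaving out any other single library called neither gene. Without control replicate 1 the values were -1.61 (edgeR adjusted p = 0.259) and 0.82 (adjusted p = 0.255). DESeq2 with all libraries called ENSCAFG00000020033 (adjusted p = 0.00766) and gave ENSCAFG00000017865 an adjusted p of 0.061.

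The disease comparison in ligament found no difference beyond the spread between dogs for either gene. Affected replicates 5, 6 and 7 and control replicate 1 are from the dogs taken to have chosen the genes. This comparison is not independent of that choice either. ENSCAFG00000020033 had a log2 fold change of 0.83 (SE 1.22, edgeR adjusted p = 0.831) in affected against control ligaments, which was -0.07 without affected replicate 3. ENSCAFG00000017865 had 1.18 (SE 0.92, adjusted p = 0.703). edgeR called 0 (0%) of 12937 genes there, with 1058 at an unadjusted p under 0.05, while 11 were called by DESeq2. With adult affected dogs only, the values were 1.44 (SE 1.39, adjusted p = 0.562) and 1.76 (SE 0.70, adjusted p = 0.252).

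Within affected ligaments, adults averaged more of both genes than dogs aged 4 months. All of those aged 4 months are among the dogs taken to have chosen the genes, and none of the adults is. Age and part in the choice cannot be told apart here. ENSCAFG00000020033 averaged 90.95 ± 105 CPM (SD, n = 4) in adults and 18.4 ± 12.6 CPM (n = 3) at 4 months, a log2 fold change of 2.31 (SE 1.50, edgeR adjusted p = 0.33). ENSCAFG00000017865 averaged 54.6 ± 38.6 CPM in adults and 12.9 ± 15.2 CPM at 4 months (log2 2.12, SE 1.03, adjusted p = 0.203). Neither passed, where 14.6% of 12619 genes did, and for both the ranges overlapped. Without adult replicate 3 the value of ENSCAFG00000020033 was 1.32, and without replicate 5, aged 4 months, that of ENSCAFG00000017865 was 3.75 (adjusted p = 0.0977). Adult replicate 4, at 1.15 CPM of ENSCAFG00000020033, was below all 3 dogs aged 4 months, and at 8.39 CPM of ENSCAFG00000017865 it was below 1 of them.

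In capsule the counts of ENSCAFG00000020033 were too low for the filter in both comparisons. It had 9 fragments in all over 6 young capsules and 14 over 5 control capsules, and 71 over 4 affected capsules, 47 of them in the adult dog. Without the filter its log2 fold change was -0.92 (SE 1.05, edgeR adjusted p = 0.539) in young against control capsules and 2.67 (SE 1.21, adjusted p = 0.815) in affected against control capsules. ENSCAFG00000017865 passed the filter and stood at -0.22 (SE 0.58, adjusted p = 0.79) in young and -0.68 (SE 1.07, adjusted p = 0.997) in affected against control capsules. The young and control comparison called 38.4% of 12589 genes and the affected and control comparison 0.236% of 12718. The affected value rests on 1 library, the adult affected capsule: without it the value was -3.02 (adjusted p = 0.246), and in a fit adjusted for age class, which sets that 1 adult against the controls, it was 1.15 (adjusted p = 0.864). Age and that single library cannot be told apart. The affected capsules left without it are all from dogs taken to have chosen the gene as low in capsule. Of the controls only replicate 3 is, so -3.02 is not independent of that choice. Young capsule replicates 1, 2 and 6 are from those dogs too.

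The genes differed in how young tissues stood against embryonic hip, where tissue and age differ together and cannot be told apart. ENSCAFG00000017865 was higher in young ligaments, at 23.1 to 56.5 CPM against 0.458 to 7.99 CPM in embryonic hip, with no overlap. The difference was 11.3-fold (log2 3.50, SE 0.80, edgeR adjusted p = 0.00938). Too few embryonic libraries reached the filter on low counts for the gene to pass without the young ligaments, so this call is not read as support. Without embryo replicate 3 the log2 value was 5.37. Of the 4 young ligaments, 3 came from the dogs whose high ligament values are taken to have chosen the gene, and the other had 56.5 CPM, so this is not an independent test of a high ligament level. ENSCAFG00000020033 had 1.00 to 11.02 CPM in young ligaments and 5.99 to 12.05 CPM in embryonic hip (log2 -0.42, SE 0.55, adjusted p = 0.556). This comparison called 47.3% of 13462 genes. Against embryonic hip, ENSCAFG00000020033 was lower by 4.75 on the log2 scale in young capsules (SE 0.64, edgeR adjusted p = 9.93e-05). It had 0 to 1.04 CPM in 6 young capsules, with no overlap. Its value was -5.37 without young replicate 3 and -5.31 without young replicate 5, which held 4 fragments each. Of the 6 young capsules, 3 are from the dogs taken to have chosen the gene as low in capsule, and the other 3 had 1.04, 0 and 0.828 CPM. The gene passed the filter on low counts here only through the embryonic libraries, so a difference was bound to appear. ENSCAFG00000017865 stood at 1.25 (SE 0.84, adjusted p = 0.264) there, and at 3.11 (adjusted p = 0.0186) without embryo replicate 3. The young capsule comparison called 43.1% of 13585 genes. The young libraries are shared with the comparisons of young and control dogs, and the embryonic ones are shared between these comparisons.

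Whether age acted differently in the tissues was tested as an interaction. The age effect in ligament minus that in capsule was -1.43 (SE 1.64, edgeR adjusted p = 0.689) for ENSCAFG00000020033 and 1.35 (SE 0.83, adjusted p = 0.437) for ENSCAFG00000017865 on the log2 scale, where 0.0369% of 13548 genes were called. In capsule ENSCAFG00000020033 had 0 to 4 fragments in young and 0 to 11 in control libraries, so its age difference cannot be judged. For the disease effect the differences were -1.87 (SE 1.91) and 1.86 (SE 1.48), with an adjusted p of 1 for both. edgeR called 0 (0%) of 13606 genes, with 290 at an unadjusted p under 0.05, and 0 were called by DESeq2. Some dogs gave both tissues, and libraries were taken as independent in these fits. With the correlation within dogs modelled (limma voom), the age difference of ENSCAFG00000020033 was -3.14 (adjusted p = 0.435) and its disease difference -3.4 (adjusted p = 1). Without the adult affected capsule the disease difference was -0.52 for ENSCAFG00000020033 and 4.19 (adjusted p = 0.912) for ENSCAFG00000017865. The affected capsules left are then all from dogs taken to have chosen the genes as low in capsule.

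**Figure D4:**
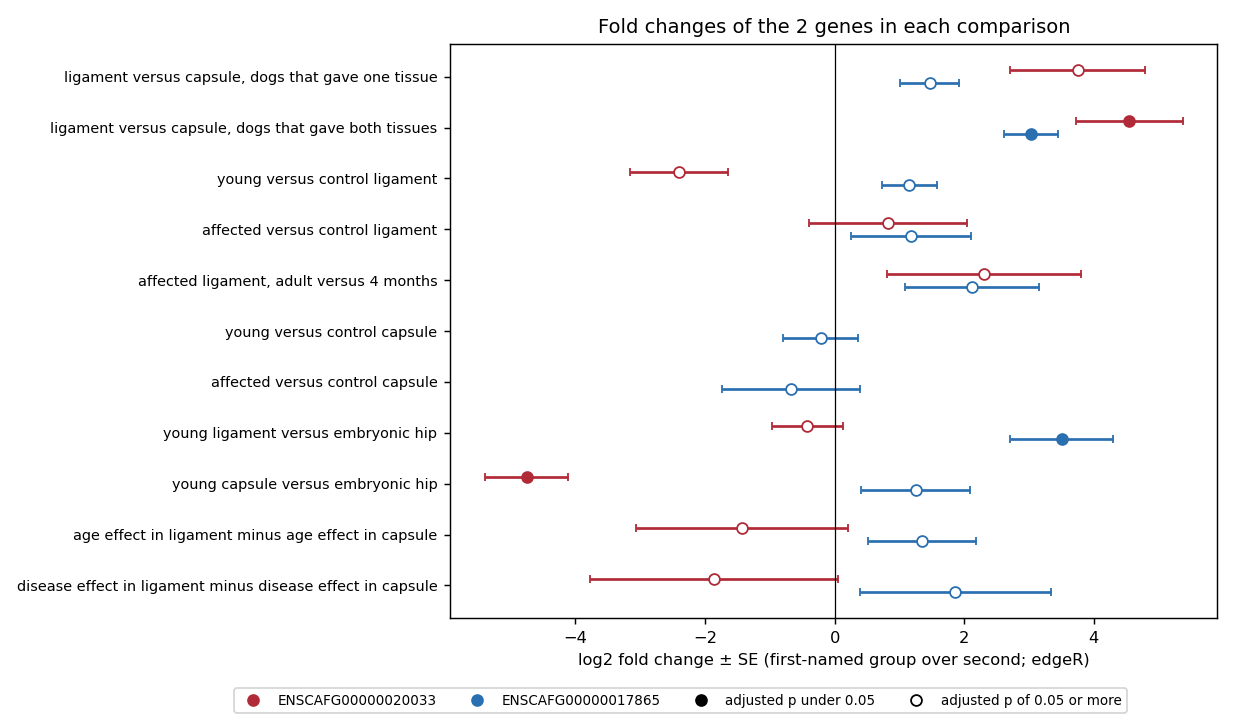
Log2 fold change ± SE from edgeR for each comparison and gene, first-named group over the second; filled points have an adjusted p under 0.05, and a gene with no point did not pass the filter on low counts. The filled points are the comparison taken to have chosen the genes, ENSCAFG00000017865 in young ligament against embryonic hip and ENSCAFG00000020033 in young capsule against embryonic hip. In both embryonic calls the gene passed the filter on low counts only through the group where it was higher.

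Genes with the most similar pattern were sought by Pearson correlation of log2 CPM over the 32 libraries, among 12412 genes with a mean of at least 5 CPM in some group. Libraries share depth and tissue make-up, so the values are a description. For ENSCAFG00000020033 the closest were ENSCAFG00000011339 (r = 0.794 over libraries and 0.962 over the 7 group means), at 0.2 to 9.28 CPM in ligaments and 0 to 1.79 CPM in capsules, and ENSCAFG00000020247 (0.75 and 0.778), at 39.9 to 238 and 23.7 to 67.7 CPM. For ENSCAFG00000017865 they were ENSCAFG00000020072 (0.798 and 0.864) and ENSCAFG00000032191 (0.798 and 0.764). These last were abundant in both tissues, at means of 159 and 224 CPM in ligament and 135 and 175 CPM in capsule. Against each other the 2 ligament genes had r = 0.471 over the 32 libraries. That put ENSCAFG00000017865 at place 121 in likeness to ENSCAFG00000020033 and the reverse at place 647. Both were chosen for the same tissue difference, so a positive r across tissues was favoured by the choice. Within the 14 ligaments r was 0.267.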

How the data were processed

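RNA of 32 hip libraries of dogs was analysed from the table of all samples. The submitters' processing notes list Cuffdiff 2.2.1, TopHat2 2.0.13, Bowtie2 2.2 and cutadapt 1.8 and the build canFam3. For the roles of these tools, the annotation release and the strand setting, no statement was found in the sources used. Per the file headers, the authors deposited an estimated count of fragments per gene and library and FPKM values scaled by the authors for depth and gene length. Of the estimated counts, 0.332% were more than 1e-06 off a whole number, and all were rounded. Status was not OK for 9 values in 3 genes, none of them studied here. IDs matched to symbols numbered 0, so the lists of markers by symbol could not be used, and fragments shared with overlapping or near-identical genes remain uncertain.

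Each comparison was fitted across all genes with edgeR 4.0.16 in R 4.3.3 (filterByExpr, TMM, robust quasi-likelihood F test, Benjamini-Hochberg adjustment over all genes tested, called under 0.05), after the test was checked on simulated data. SE values come from the F statistic. CPM uses TMM-scaled totals of all libraries, and log2 CPM a prior count of 2. Alternatives used DESeq2 1.42.0, limma 3.58.1 on log2(FPKM + 1) and log2(FPKM + 0.1) for genes with a mean of at least 0.5 FPKM, no filter, and each library left out. The exact permutation test between tissues used SciPy 1.17.1. Permutation p-values of the correlations (100000 resamples for 10 or more libraries, all pairings for fewer) were computed directly, as 2 times the smaller tail. The genes named beside the 2 studied are those with the 2 highest correlations to each. The contrasts of adult with 4 months and of young with embryonic were turned so that the older group is on top. Labels name separate dogs as replicates, and no pair of libraries agreed within sampling noise (lowest chi-square per gene 4.44 over 64 pairs). Genes, lists and tests were chosen with earlier results of these data known. Fragments carry no molecular identifiers, so precision is limited by counts as low as 0 in capsules.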

Additional observations from a re-analysis of the deposited data

Results flagged for a closer look

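Groups of 4 to 10 libraries were checked for a library far from the others, 10 combinations of gene and group in all, and chance alone marks about 1 in 20. ENSCAFG00000017865 in the adult affected capsule, at 19.2 CPM, was the only one, standing 0.869 of the group's range above the next capsule, past the 95% critical value of Dixon's test for 4 libraries. The other 3 affected capsules came from dogs aged 4 months.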

How the results depend on the processing

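In dogs that gave 1 tissue, the uncalled ligament over capsule log2 values of ENSCAFG00000020033 and ENSCAFG00000017865 passed with DESeq2 (3.98 and 1.49) and with no sample group covariate (4.81 and 1.9), and ran from 3.2 to 4.39 and from 1.12 to 1.66 with 1 library left out. The exact permutation test (4.05 and 1.59) was judged on unadjusted p-values. In the dogs taken to have chosen the genes, ENSCAFG00000020033 was no longer called without the filter (4.55), nor without the young dog of ligament replicate 1 (range 3.88 to 5.51 over dogs left out). In young against control ligament it was called with DESeq2 (-2.42) and ran from -2.88 to -1.61 with libraries left out. In affected against control ligament its sign turned with limma on FPKM (-0.20 with a pseudocount of 1, -0.26 with 0.1) and ran from -0.07 to 1.63. ENSCAFG00000017865 ran from -0.50 to 0.20 in young against control capsule, where the sign turned without control replicate 2, and from 0.75 to 3.11 in young capsule against embryonic hip. With libraries left out, the age difference between tissues ran from -3.1 to -0.65 for ENSCAFG00000020033 and 0.94 to 1.8 for ENSCAFG00000017865, and the disease difference from -3.53 to -0.52 and 1.4 to 4.19. In affected against control capsule it was 1.15 with age class as a covariate. Its order of groups had 5 of 7 places in common on FPKM, where affected ligament led young ligament. The cause of these changes was not tested.

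Numbers shared by replicates do not pair the libraries (different dogs, correlations of deviations from -0.406 to 0.532). With the replicate number as a replicate block, the values in dogs with 1 tissue were 1.89 (adjusted p = 0.347) and 0.63 (adjusted p = 0.521), ENSCAFG00000017865 was called in affected against control ligament (2.18), and the difference of disease effects for ENSCAFG00000020033 was 0.15. In young ligament against embryonic hip and young capsule against embryonic hip the 2 called values stayed called.

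Counts of genes called also moved. In dogs with 1 tissue 135 became 519 with DESeq2, 82 with adult libraries only and 18 to 183 with a library left out. In dogs with both, 368 became 696 with DESeq2. Young against control ligament went to 1992 with DESeq2, 829 with the block and 617 to 1774 with a library left out, beside 1310. Adult against 4 months went to 1098 and 1110 with limma on FPKM and 549 to 2203, beside 1841. Affected against control capsule went to 138 with DESeq2, 47 with no filter, 10 and 4 with limma, 6 with the block, 11 with age class and 2 to 41, beside 30. Affected against control ligament went to 11 with DESeq2, 260 with the block and 0 to 1 with a library left out, beside 0. The age interaction went to 104 with DESeq2, 10 with limma on log2(FPKM + 0.1), 150 with limma voom and dog correlation, 0 with the block and 0 to 715, beside 5. Depth limits ENSCAFG00000020033 in capsule, where 94 fragments over 15 libraries carry every value.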
